A study of Mus musculus with 2 samples.

Results

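The following 9 genes are described here: the chemokines Ccl2, Ccl7, Ccl12, Ccl8, Ccl6, Ccl9 and Ccl24, and the receptors Ccr2 and Cx3cr1. They were chosen by symbol as secreted attractants of monocytes and related leukocytes, with the receptors that mark monocyte subsets, and they are 9 of the 31053 genes in the count matrix. Earlier results of these data were known when they were chosen. All 9 were detected in both libraries, with between 7695 (Ccl24) and 145733 (Ccl2) UMIs (unique molecular identifiers, 1 per captured mRNA molecule) in the cells analysed.

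Live CD45+ cells were sorted from B16 melanomas grown in mice of 8 weeks and profiled by droplet 3′ RNA sequencing, with 1 library per genotype. The WT mice were Mettl3 fl/fl Lyz2 +/+ and the KO mice Mettl3 fl/fl Lyz2 cre/+, so the floxed Mettl3 allele was carried by both groups and they differed in the Cre allele. Mettl3 encodes the catalytic subunit of the mRNA m6A methyltransferase. The Lyz2 promoter drives Cre mainly in macrophages, monocytes and granulocytes, and the Cre allele disrupts 1 copy of Lyz2. Cells of several mice were pooled in each library, so the animals cannot be told apart, and with 1 library per group no difference below has a replicate check. All intervals are exact 95% intervals for counting error only.

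The labels were checked before any comparison. Lyz2 was at 5949 CPM (UMIs per 1000000 UMIs of the class) in macrophage-like cells of the WT-labelled library and at 2679.6 CPM in those of the KO-labelled library, which gave a log2 ratio of -1.15 (-1.17 to -1.14). Mettl3 was not lower there: it was at 9.94 CPM in the WT-labelled library and 10.7 CPM in the KO-labelled library, which gave a log2 ratio of 0.11 (-0.17 to 0.39). The 3′ counts do not say whether a transcript carries the floxed part, so Mettl3 does not check the label. The libraries are therefore called by their labels throughout.

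CC chemokines are small secreted proteins that bind receptors on leukocytes and direct their migration. Ccl2, Ccl7 and Ccl12 act on Ccr2, the receptor by which classical monocytes leave the bone marrow and enter inflamed tissue and tumours, where they can become macrophages. Cx3cr1, the receptor for fractalkine, is typical of nonclassical monocytes and of some tissue macrophages.

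Of the 7 ligands, 6 lie in 2 groups on mouse chromosome 11 (GRCm38, the build called mm10; GENCODE annotation). Ccl2 (11:82035571-82037453), Ccl7 (11:82045712-82047525), Ccl12 (11:82101845-82103400) and Ccl8 (11:82115185-82116799) follow each other on the plus strand. The gap between Ccl2 and Ccl7 is 8.26 kb, that between Ccl7 and Ccl12 is 54.3 kb, and that between Ccl12 and Ccl8 is 11.8 kb. Ccl9 (11:83572919-83578636) and Ccl6 (11:83587882-83593087) are on the minus strand, 9.25 kb apart. Ccl24 lies alone on chromosome 5 (135569937-135573049), and both receptors lie on chromosome 9, Cx3cr1 at 119901616-120069879 and Ccr2 at 124101950-124113557.

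The promoters of the neighbours Ccl12 and Ccl8 are shown because their levels differed between the libraries in opposite directions in macrophage-like cells, and those of Ccl6 and Ccl9 because their levels differed together. Each sequence holds the 250 bases before the annotated start (RefSeq, GRCm38.p6), read 5′ to 3′ on the strand of the gene. Capitals mark matches to any of 5 searched motifs on either strand.
Ccl12, chr11:82101595-82101844, plus strand: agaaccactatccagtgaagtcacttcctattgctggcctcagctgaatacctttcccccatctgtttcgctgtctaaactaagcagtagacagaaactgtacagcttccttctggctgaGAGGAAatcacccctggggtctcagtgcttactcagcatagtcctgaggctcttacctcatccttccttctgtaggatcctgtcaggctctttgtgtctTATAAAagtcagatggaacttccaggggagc
Ccl8, chr11:82114935-82115184, plus strand: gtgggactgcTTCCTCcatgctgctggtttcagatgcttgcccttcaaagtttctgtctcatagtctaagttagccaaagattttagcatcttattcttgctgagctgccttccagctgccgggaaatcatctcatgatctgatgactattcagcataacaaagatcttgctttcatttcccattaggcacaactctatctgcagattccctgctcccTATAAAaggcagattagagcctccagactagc
Ccl6, chr11:83593088-83593337, minus strand: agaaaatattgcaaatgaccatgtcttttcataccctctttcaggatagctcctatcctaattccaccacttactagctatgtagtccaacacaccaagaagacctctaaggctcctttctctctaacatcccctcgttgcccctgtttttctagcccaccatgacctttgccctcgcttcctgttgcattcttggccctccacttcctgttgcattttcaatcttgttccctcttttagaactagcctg
Ccl9, chr11:83578637-83578886, minus strand: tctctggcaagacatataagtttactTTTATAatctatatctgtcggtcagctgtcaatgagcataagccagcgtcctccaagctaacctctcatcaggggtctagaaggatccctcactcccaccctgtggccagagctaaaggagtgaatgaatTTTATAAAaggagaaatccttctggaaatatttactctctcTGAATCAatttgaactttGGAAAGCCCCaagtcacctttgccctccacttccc

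The motifs were the TATA box TATAAA, the ETS core GAGGAA, the AP-1 site TGANTCA, the interferon element core GAAANNGAA, and the NF-kB site. Ccl12 and Ccl8 each held a TATA box close to the start, at 31 and 32 bases before it, and each held 1 ETS core, at 130 and 240 bases before the start. Of all 32851 promoters in the table, 12.4% held a TATA box and 23.3% an ETS core somewhere in these 250 bases. Ccl9 had 3 TATA box matches, 2 of them overlapping, and the nearest began 92 bases before the start. It held 1 AP-1 site (53 bases; 6.75% of all promoters) and 1 NF-kB site (35 bases; 7.25% of all promoters). None of the 5 motifs was found in this window of Ccl6. The interferon element core, present in 7.13% of all promoters, was in none of the 4 windows shown and was found once in the RefSeq window of Ccr2 (9:124101933-124102182), 86 bases before the RefSeq start. That start lies downstream of the GENCODE start of Ccr2, so the match is inside the gene as GENCODE annotates it. Promoters were given for 6 of the 9 members; Ccl2, Ccl7 and Ccl24 had no entry.

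The WT-labelled library held 5405 cells after filtering and that labelled KO 7625, with medians of 4148 and 3567 UMIs per cell. Each cell was placed in a class by lists of marker genes that included none of the 9 members. Macrophage-like cells (C1qa, C1qb, C1qc, Apoe and others) numbered 1971 and 2501, which was 36.5% and 32.8% of cells. Classical monocyte-like cells (Ly6c2, Plac8, Chil3 and others) numbered 838 and 2167, or 15.5% and 28.4%. The 8 macrophage markers were each found in at least 59.3% of macrophage-like cells of either library, and the 8 classical monocyte markers each in at least 28.8% of classical monocyte-like cells. Of the cells of these 2 classes, 4.77% and 7.26% lay within 0.05 of the score line between them. Of the CD45-sorted barcodes, 145 and 232 were melanoma-like, with Ptprc, the CD45 gene, at 8.43 and 8.13 CPM. The libraries shared 13 barcode sequences of 14341.

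Ccl2, the main ligand of Ccr2, was highest in macrophage-like cells among the 13 classes with at least 50 cells per library, at 2338 CPM (2318 to 2359) in the WT-labelled library and 2897 CPM (2874 to 2921) in the KO-labelled library. Classical monocyte-like cells held it at 1396 and 2479 CPM. The log2 ratio, KO over WT, was 0.31 (0.29 to 0.33) in macrophage-like cells and 0.83 (0.79 to 0.87) in classical monocyte-like cells. Ccl2 UMIs were uneven among cells, since the 10% of macrophage-like cells with the most held 54.0% and 51.5% of them. Of all Ccl2 UMIs, 84.7% lay in macrophage-like cells in the WT-labelled library and 68.4% in the KO-labelled library.

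Ccl7, a related ligand of Ccr2 and other receptors, was also highest in macrophage-like cells. Its level in macrophage-like cells was 1403 CPM in the WT-labelled library and 1689.6 CPM in the KO-labelled library, which gave a log2 ratio of 0.27 (0.25 to 0.29). In classical monocyte-like cells it was 548 and 1118 CPM, which gave a log2 ratio of 1.03 (0.96 to 1.09). To compare shares of cells at 1 depth, each cell was thinned to 1000 UMIs, and cells with fewer were left out (153 of 1971 and 222 of 2501 macrophage-like, 29 of 838 and 67 of 2167 classical monocyte-like cells). Among thinned classical monocyte-like cells, Ccl2 was found in 76.3% of WT-labelled cells with Ccl7 and 29.6% of those without it, and in the KO-labelled library in 86.7% and 32.5%. Ccl2 was thus found more often beside Ccl7 in both libraries.

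Ccl12, the third of the neighbouring Ccr2 ligands, was at 1566 CPM in WT-labelled and 1763 CPM in KO-labelled macrophage-like cells, which gave a log2 ratio of 0.17 (0.15 to 0.19). In classical monocyte-like cells it was at 409.7 and 797 CPM, which gave a log2 ratio of 0.96 (0.88 to 1.04). Ccl2, Ccl7 and Ccl12 thus all stood higher in the KO-labelled monocyte-like cells by more than in the KO-labelled macrophage-like cells, and the counting intervals of the paired ratios do not overlap for any of the 3. These intervals leave out the unevenness among cells and mice, and with 1 library per genotype the difference between the classes was not tested.

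Ccl8, which signals through Ccr8 in the mouse, was the member held most by 1 class. Macrophage-like cells held 96.5% of its UMIs in the WT-labelled library and 94.6% in the KO-labelled library. Its level there was 2897 CPM (2874 to 2920) and 2361 CPM (2340 to 2382), so it stood lower in the KO-labelled library, unlike its 3 neighbours, with a log2 ratio of -0.30 (-0.31 to -0.28). In classical monocyte-like cells it was at 105 CPM (95.6 to 116) and 149 CPM (141 to 157), above the 82.8 CPM (72.7 to 93.9) and 75.5 CPM (66.3 to 85.5) of T-like cells, a class that should lack it. The share of cells gave no such order: after thinning to 1000 UMIs per cell, 8.06% and 8.4% of monocyte-like cells held a Ccl8 UMI against 11.3% and 8.28% of T-like cells (27.7% and 20.9% against 26.5% and 18.8% before thinning). The level after thinning was 101 and 149 CPM in classical monocyte-like cells and 131 and 95.9 CPM in T-like cells. It was 130 and 190 CPM in B-like cells and 240 and 246 CPM in granulocyte-like cells. Ccl8 in classical monocyte-like cells thus did not stand above B-like cells in either library. One classical monocyte-like cell of the KO-labelled library held 128 of the 1300 Ccl8 UMIs of its class. With both monocyte-like classes joined the log2 ratio of Ccl8 was 0.45, and it turned to -0.83 when a cell had to lead its next class by 2 times.

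**Figure D1:**
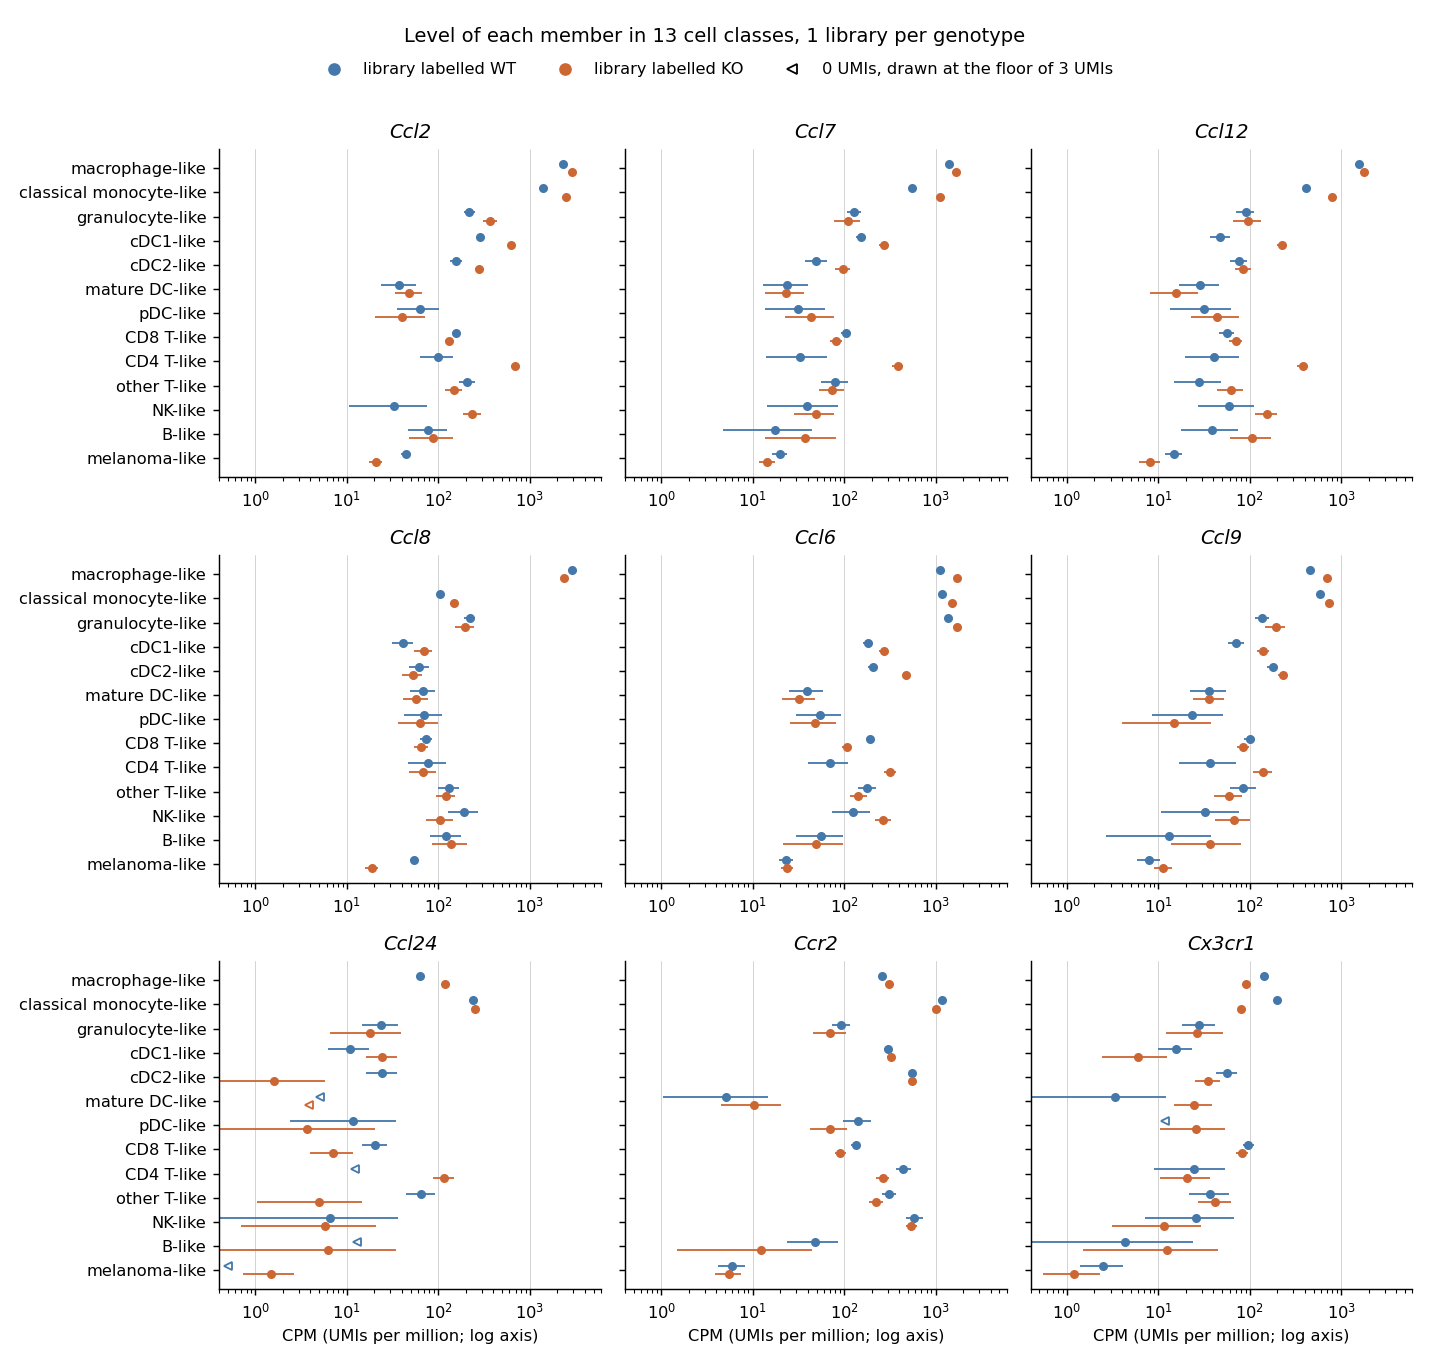
Level of each of the 9 genes (panels) in 13 cell classes (rows) on a log axis of CPM, with 95% counting intervals, for the WT-labelled (blue) and KO-labelled (orange) libraries; open triangles stand for 0 UMIs, drawn at the level of 3 UMIs. Ccl8 stood far to the right in macrophage-like cells alone, at 2897 and 2361 CPM, whereas Ccr2 was highest in classical monocyte-like cells, at 1184 and 1025 CPM.

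The other neighbouring pair, Ccl6 and Ccl9, are ligands of Ccr1 and had a wider spread over classes. Ccl6 was at 1121 CPM in WT-labelled and 1702 CPM in KO-labelled macrophage-like cells, which gave a log2 ratio of 0.60 (0.58 to 0.63). In granulocyte-like cells it was at 1372 CPM (1296 to 1451) and 1700.1 CPM (1564 to 1845). The granulocyte-like level was the higher in the WT-labelled library, and in the KO-labelled library the intervals of these 2 classes overlapped. In classical monocyte-like cells it was at 1182 and 1502 CPM, which gave a log2 ratio of 0.35 (0.30 to 0.39). The granulocyte-like class was smaller in the KO-labelled library, 259 against 567 cells, and held 1.08% against 3.60% of all Ccl6 UMIs.

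Ccl9 was at 454 CPM in WT-labelled and 697 CPM in KO-labelled macrophage-like cells, which gave a log2 ratio of 0.62 (0.58 to 0.65). In classical monocyte-like cells it was at 589.9 and 739 CPM, which gave a log2 ratio of 0.32 (0.26 to 0.39). Both members of the pair therefore differed by about the same factor in each class, and by more in macrophage-like than in classical monocyte-like cells, the reverse of the Ccr2 ligands. In thinned macrophage-like cells, Ccl6 was found in 67.9% and 75.7% of the cells with Ccl9, against 35.2% and 44.8% of the cells without it.

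Ccl24, also called eotaxin-2, attracts eosinophils through Ccr3. Few cells held it: 10.2% of WT-labelled and 12.2% of KO-labelled macrophage-like cells had a UMI, and 7.88% and 10.6% of classical monocyte-like cells. Its level in macrophage-like cells was 63.5 CPM (60.2 to 66.9) and 118.5 CPM (114 to 123), which gave a log2 ratio of 0.90 (0.80 to 0.998). One macrophage-like cell of the WT-labelled library held 299 of its 1367 UMIs, and without the highest cell of each library the log2 ratio was 1.18. When a cell had to lead its next class by 2 times, the log2 ratio was 0.23, and with equal weight for each of 5 bins of cells ordered from monocyte to macrophage markers it was 0.53, both short of 1.5-fold. In classical monocyte-like cells the level was 239.6 and 251.5 CPM, which gave a log2 ratio of 0.07 (-0.04 to 0.18), an interval that included 0. With classical and nonclassical monocyte-like cells joined the ratio was also 0.07, but it was 0.65 under the same stricter rule and -0.19 with Leiden clusters in place of the marker classes. Classical monocyte-like cells above the median of MHC class II genes had a log2 ratio of 0.24 (0.11 to 0.38). Those at or below the median had -0.28 (-0.47 to -0.09), and the difference of these ratios was not tested.

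Of the receptors, Ccr2 was highest in classical monocyte-like cells of the 13 classes, at 1184 CPM (1150.4 to 1217) in the WT-labelled library and 1025 CPM (1004 to 1046) in the KO-labelled library, which gave a log2 ratio of -0.21 (-0.26 to -0.16). It followed in NK-like cells, at 586 and 545 CPM, and in cDC2-like dendritic cells, at 552 and 553 CPM, with overlapping intervals in both libraries. CD4 T-like cells held 446 and 266 CPM, cDC1-like dendritic cells 303 and 327 CPM, and macrophage-like cells 262 and 312 CPM. Within macrophage-like cells the log2 ratio was 0.25 (0.20 to 0.30), opposite in sign to that of classical monocyte-like cells, but with equal weight for each of the 5 bins it was -0.11. In thinned cells, 63.5% and 58.4% of monocyte-like cells held a Ccr2 UMI, against 2.78% and 1.59% of B-like cells (87.8% and 84.1% against 3.15% and 2.15% before thinning).

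Cx3cr1 was lower in the KO-labelled library in both classes. Macrophage-like cells held 144 CPM (139 to 149.6) and 91.6 CPM (87.5 to 95.9), which gave a log2 ratio of -0.66 (-0.74 to -0.57). Classical monocyte-like cells held 196 and 80.2 CPM, which gave a log2 ratio of -1.29 (-1.44 to -1.14). One WT-labelled cell held 191 of the 800 UMIs of that class, and without the highest cell of each library the levels were 149.7 and 77.8 CPM and the log2 ratio -0.94. The share of cells with a Cx3cr1 UMI was also lower after thinning, at 7.28% against 11.5% of macrophage-like cells and 8.80% against 15.2% of monocyte-like cells (22.0% against 36.5% and 20.04% against 34.7% before thinning). In nonclassical monocyte-like cells, where only 49 and 123 cells were found, it was at 675.5 CPM and 459.5 CPM, which gave a log2 ratio of -0.56 (-0.91 to -0.19).

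**Figure D2:**
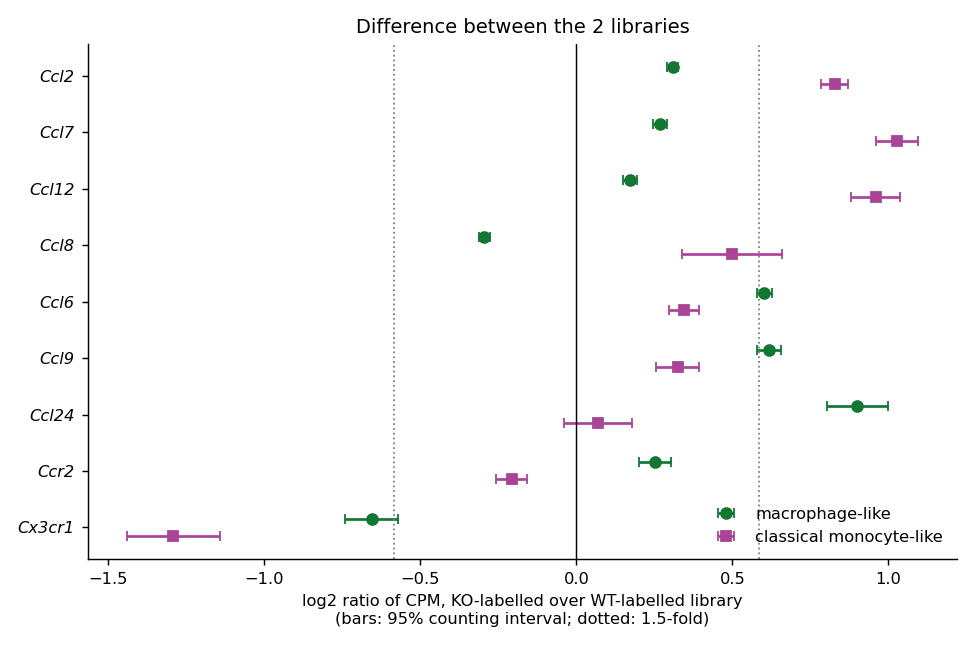
Log2 ratio of each gene's CPM, KO-labelled library over WT-labelled library, in macrophage-like (circles) and classical monocyte-like cells (squares), with 95% counting intervals and dotted lines at 1.5-fold. Ccl2, Ccl7 and Ccl12 lay further right in monocyte-like cells (0.83 to 1.03), Ccl6, Ccl9 and Ccl24 further right in macrophage-like cells (0.60 to 0.90), and Cx3cr1 lay left of 0 in both.

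Counted by a fixed size of 1.5-fold, 3 of the 9 genes (Ccl6, Ccl9 and Ccl24) were higher in KO-labelled macrophage-like cells, where 1.04% of the 5780 genes with enough UMIs were, and 1 (Cx3cr1) was lower, where 0.398% of genes were. With classical and nonclassical monocyte-like cells joined, 3 of 9 (Ccl2, Ccl7 and Ccl12) were higher in the KO-labelled library, where 2.24% of 5722 genes were, and Cx3cr1 was lower, where 0.874% were. The median log2 ratio of the 9 genes was 0.27 in macrophage-like and 0.34 in monocyte-like cells, against 0.02 and 0.01 over all genes counted. The 9 genes were chosen with earlier results of these data known, so these shares and medians do not test the family. Ccl6 and Ccl9 sat just past the line in macrophage-like cells, and under the stricter rule both were short of it, with log2 ratios of 0.51 and 0.51, as was Ccl24 at 0.23. Cx3cr1 was short of the line in macrophage-like cells after thinning (-0.58) and with equal weight per bin (-0.56).

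Other transcripts differed alongside these. Every one of the 8 genes of the interferon response list was higher in the KO-labelled library in both classes, with summed levels of 796 and 1358 CPM in macrophage-like and 1585 and 3102 CPM in classical monocyte-like cells. Granulocyte marker RNA was lower, its 7 genes summing to 869.8 and 273 CPM in macrophage-like cells and 805 and 175 CPM in classical monocyte-like cells. Classical monocyte markers summed to 991 CPM in WT-labelled and 1432 CPM in KO-labelled macrophage-like cells, and 7 of the 8 were higher in the latter. In classical monocyte-like cells they summed to 7312 and 7728 CPM, with 3 of the 8 higher in the KO-labelled library. Macrophage markers summed to 14345 and 13471 CPM in macrophage-like and 2537 and 2265 CPM in classical monocyte-like cells, with 2 of the 8 higher in the KO-labelled library in each class. T markers summed to 149.6 and 92.9 CPM and B markers to 18.6 and 11.7 CPM in macrophage-like cells, with 0 of 7 and 1 of 6 higher; in classical monocyte-like cells they summed to 46.2 and 47.2 CPM and to 17.9 and 9.61 CPM. The 11 dissociation stress genes summed to 1803 and 1955 CPM in macrophage-like and to 4135 and 3726 CPM in classical monocyte-like cells. The part of any of these lists in the ratios of the 9 genes was not tested.

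Because a score line divides macrophage-like from classical monocyte-like cells, the cells of both were also ordered by the difference of the macrophage and classical monocyte marker scores and divided into 5 bins of equal size, from the monocyte end (bin 1) to the macrophage end (bin 5). The KO-labelled library had 23.7% of these cells in bin 1 and 15.3% in bin 5, and the WT-labelled library had 13.9% and 27.8%. Ccr2 descended along this order, from 1419 and 1152 CPM in bin 1 to 77.1 and 89.9 CPM in bin 5. Ccl8 ascended, from 94.7 and 69.5 CPM to 4264 and 3865 CPM, and Ccl12 from 265 and 485 CPM to 1961 and 1968 CPM. Ccl6 and Ccl9 peaked in bin 3, Ccl6 at 1691 and 2375 CPM and Ccl9 at 737 and 1031 CPM, and Ccl24 peaked in bin 2, at 338 and 352.5 CPM.

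The log2 ratio of Ccl8 was -0.45, 0.97, 0.54, -0.10 and -0.14 in bins 1 to 5, so it was higher in the KO-labelled library in bins 2 and 3. With equal weight for each bin, its ratio in macrophage-like cells was -0.06 in place of -0.30. Between the libraries, the log2 ratios of the 3 Ccr2 ligands were larger in bins 1 to 3 than in bins 4 and 5. The log2 ratio of Ccl2 was 0.88, 0.85, 0.70, 0.15 and 0.30 in bins 1 to 5, that of Ccl7 1.29, 0.96, 0.57, 0.14 and 0.25, and that of Ccl12 0.87, 1.07, 1.01, 0.34 and 0.01. The ratio of Ccl6 was 0.16 in bin 1 and between 0.46 and 0.49 in bins 2 to 5, and that of Ccl9 was 0.20 in bin 1 and between 0.41 and 0.55 in the others. Ccr2 was lower in the KO-labelled library in bins 1 to 3 (-0.30, -0.15 and -0.19), was at 309 CPM in both libraries in bin 4, and had a ratio of 0.22 in bin 5. Cx3cr1 was lower in all 5 bins, by ratios of -0.90, -1.68, -0.41, -0.56 and -0.62, and the ratio in bin 2 was -1.06 without the highest cell of each library. With equal weight for each bin, the Ccr2 ratio of macrophage-like cells was -0.11 in place of 0.25.

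**Figure D3:**
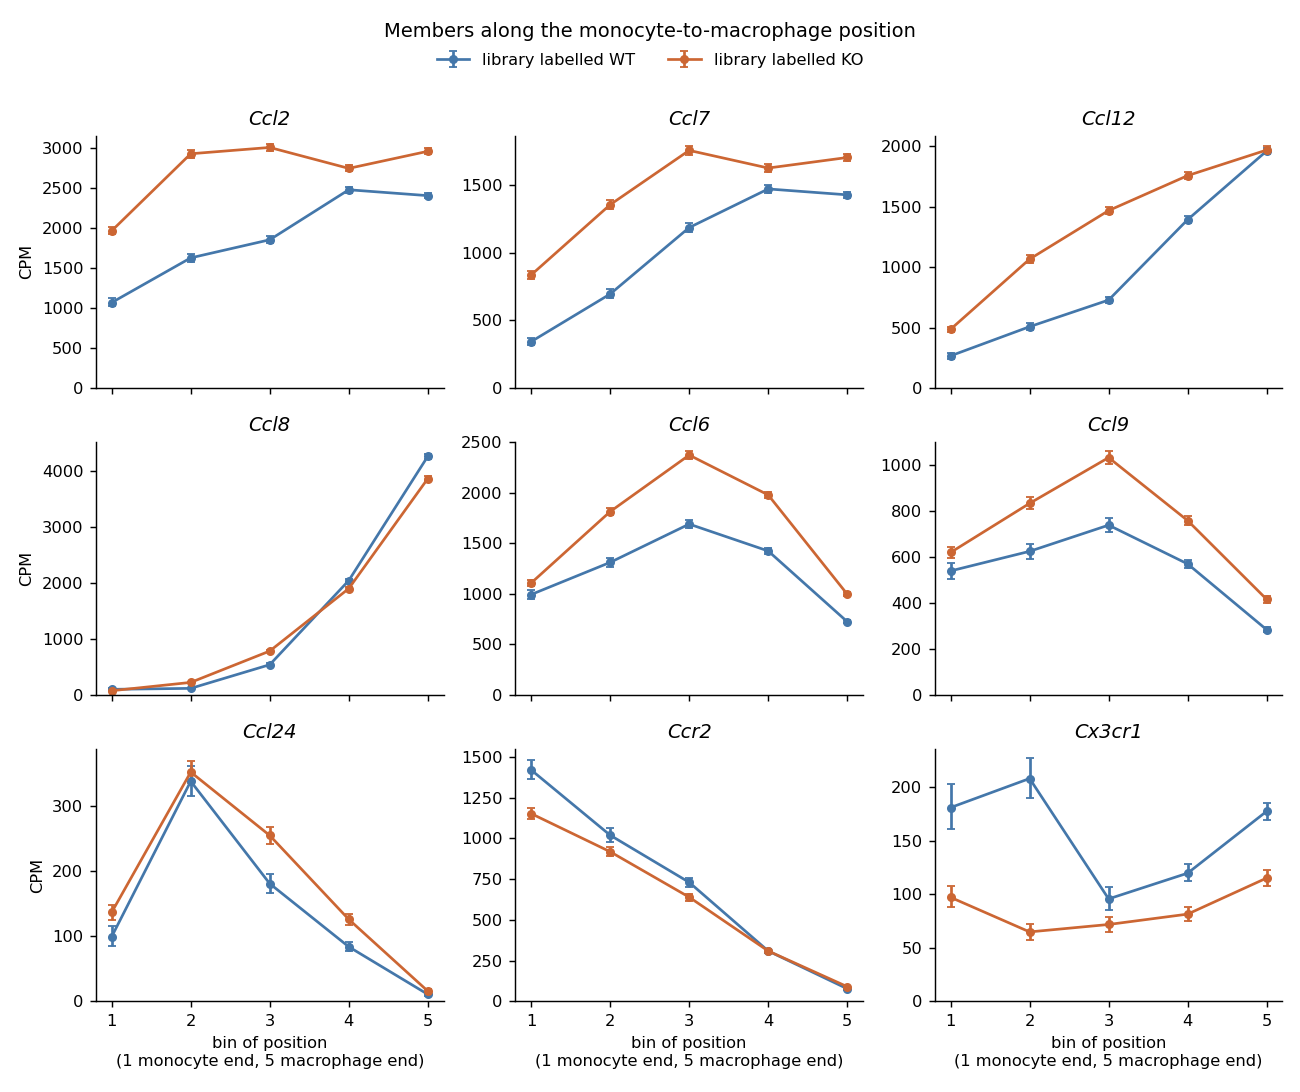
CPM of each gene (linear axis from 0) in 5 equal bins of macrophage-like and classical monocyte-like cells ordered from the monocyte end (1) to the macrophage end (5), for the WT-labelled (blue) and KO-labelled (orange) libraries, with 95% counting intervals. Ccr2 descended and Ccl8 ascended along the order in both libraries, and the gap between the libraries for Ccl2, Ccl7 and Ccl12 was widest in bin 2 or 3.

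Among macrophage-like cells, those below the median of MHC class II genes had less Ccr2 than those above it, 123 and 197 CPM against 420.1 and 412 CPM, and its log2 ratio between the libraries was 0.68 (0.58 to 0.78) below and -0.03 (-0.09 to 0.03) above; the difference of these ratios was not tested. Cycling macrophage-like cells (at least 2 UMIs of cell cycle genes per 10000) held less Ccl6 than the others, 744 and 1032 CPM against 1359.9 and 2070.4 CPM.

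The levels in the whole libraries also reflect how many cells of each class were sampled, and macrophage-like cells had medians of 8685 and 6221 UMIs per cell. Over all kept cells, Ccr2 was at 320.4 and 392 CPM, which gave a log2 ratio of 0.29. With the class shares held at those of the WT-labelled library, its ratio was 0.03, and with WT-labelled levels at the class shares of the KO-labelled library it was 0.33. Cx3cr1 went the other way, with -0.67 over all kept cells and -0.67 with the shares held. Ccl8, with -0.52 over all cells, had -0.29 with the shares held and -0.24 with the levels held.

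**Figure D4:**
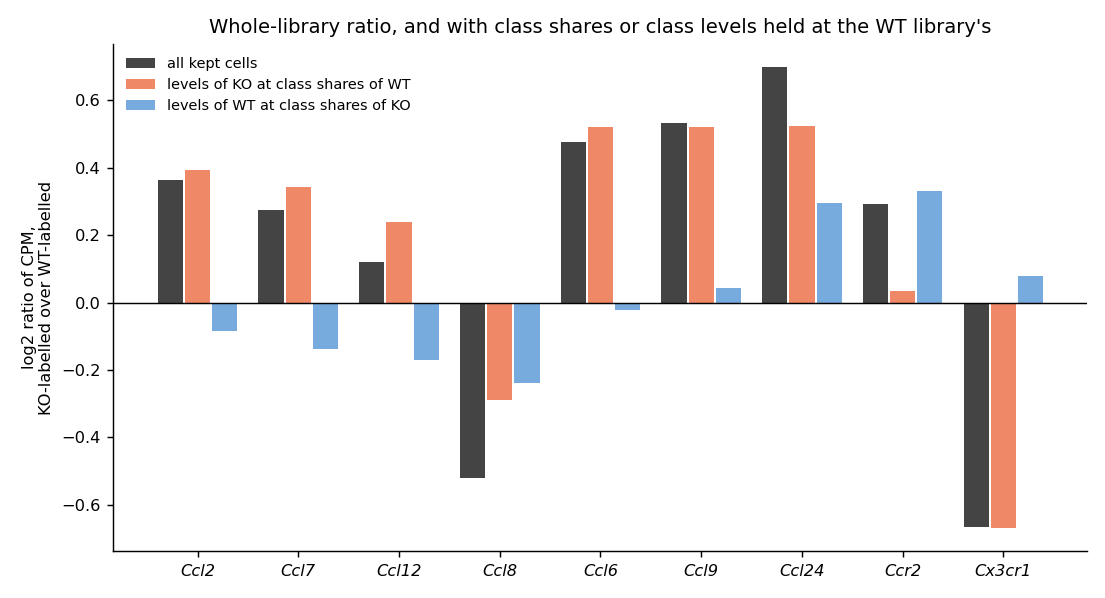
Log2 ratio of each gene's CPM over all kept cells, KO-labelled library over WT-labelled library (dark), the same with the class shares of UMIs held at the WT-labelled library (orange), and with the class levels held at the WT-labelled library (blue). The ratio of Ccr2 was near 0 with the shares held (0.03), and that of Cx3cr1 was near 0 with the levels held (0.08).

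**Figure D5:**
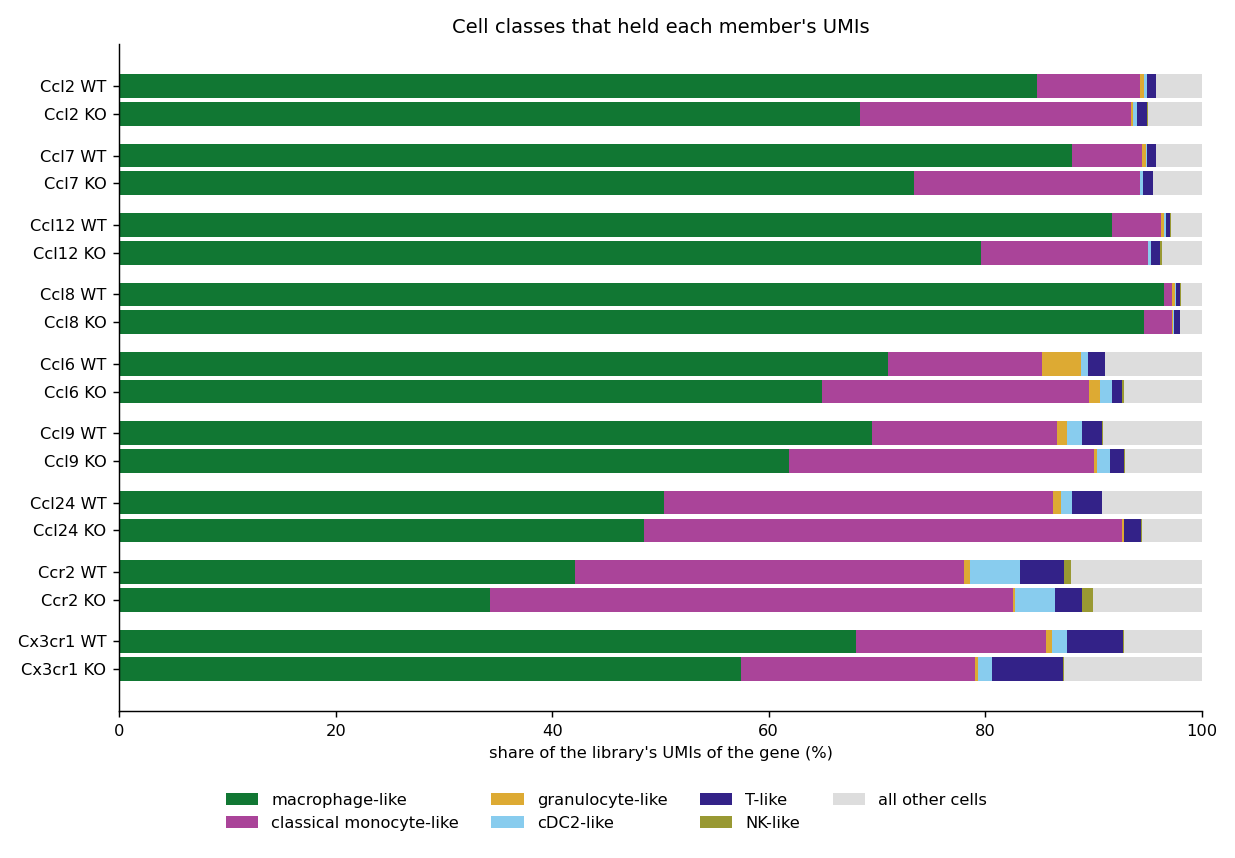
Share (%) of each gene's UMIs held by cell class in the WT-labelled and KO-labelled libraries, over all kept cells. Macrophage-like cells held 96.5% and 94.6% of Ccl8 but 42.1% and 34.3% of Ccr2, with most of the rest of Ccr2 in classical monocyte-like cells.

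Outside the monocyte and macrophage classes, granulocyte-like cells held Ccl6 often, with a UMI in 55.9% and 60.6% of cells after thinning against 6.21% and 8.58% of T-like cells (57.5% and 64.5% against 20.6% and 17.2% before). Thinning left out 129 of 567 and 117 of 259 granulocyte-like cells and 40 of 652 and 116 of 804 T-like cells. Ccl2 was found in 19.8% and 19.2% of T-like cells, with medians of 2377.5 and 1776 UMIs per cell, and in 8.82% and 10.6% of them after thinning. These shares give a rough background against which low levels are read, since a few T-like cells held many Ccl2 UMIs. Single cells held much of the higher levels: 1 of the 126 CD4 T-like cells of the KO-labelled library held 188 of the 369 Ccl2 UMIs of its class, and 113 of the 206 Ccl7 UMIs of that class also lay in 1 cell. Without the highest cell of each library the CD4 T-like levels were still higher in the KO-labelled library, at 91.96 and 374 CPM for Ccl2 (log2 ratio 2.02) and at 29.0 and 192 CPM for Ccl7 (2.73). The share of these cells with a Ccl2 UMI went the other way, at 26.3% and 18.3%, and the 10% of KO-labelled CD4 T-like cells with the most held 97.3% of the Ccl2 UMIs, so few cells carried the level. In NK-like cells of the KO-labelled library 1 cell held 57 of 82 Ccl2 UMIs, and without the highest cells the levels were 26.8 and 74.6 CPM. In cDC1-like cells Ccl2 was at 288 and 624 CPM, and at 173 and 462 CPM without the highest cell of each library, which moved the log2 ratio from 1.11 to 1.41. Doublets left after filtering were not tested as a source of these cells.

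Of 30 other genes of the chemokine and monocyte recruitment pathway, 13 had enough UMIs in macrophage-like and 15 in monocyte-like cells. In macrophage-like cells 0 of them were past 1.5-fold in either direction. In monocyte-like cells 1 was higher and 0 lower in the KO-labelled library: Ccl4, a chemokine of the same family, at 291.5 and 449 CPM, which gave a log2 ratio of 0.62. The medians of these genes were 0.03 and -0.04. Cx3cl1, the ligand of Cx3cr1, was under 1 CPM in both classes of both libraries.

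The genes whose levels over the 13 classes of both libraries (26 profiles) were most like those of each member were found by Pearson's r of log2(CPM + 1), a description over classes that share their libraries. Between members, Ccl2 and Ccl7 had an r of 0.96, and Ccl12 had 0.92 with each of them, whereas Ccl8 and Ccr2 had 0.28. Among genes that were neither members nor cell type markers, Ccl2 was closest to Fcgr1 (0.94), Lpl (0.93) and Fcgr4 (0.92), and Ccl7 to Msr1 (0.93) and Fcgr4 (0.92). Ccl12 was closest to Fcgr4 (0.88), Ctsc (0.88) and Msr1 (0.86), and Ccl8 to Stab1 (0.89), Lgmn (0.82) and Folr2 (0.81). For Ccl6 the closest were Hk3 (0.94), Fcgr4 (0.94) and Fcgr3 (0.93), and for Ccl9 Fcgr1 (0.96), Ms4a6d (0.95) and Clec4a3 (0.93). Among those close to Ccl24 were Mmp13 (0.82) and Spp1 (0.81). Among those close to Ccr2 were Dok2 (0.94) and Tln1 (0.89), and Cx3cr1 was closest to Cndp2 (0.78), Ripk3 (0.77) and Lcp2 (0.76).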

How the data were processed

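The deposited matrix held whole-number UMI counts per gene and barcode, which the authors made with Cell Ranger 4.0.0 (per the file headers) on mm10, with no normalisation. It held 45963969 UMIs in 5895 barcodes labelled WT and 54052317 in 8446 labelled KO. Cells with at least 200 genes and at most 10% mitochondrial UMIs were kept, as in the study's methods. Scrublet (scanpy 1.11.5) marked 1 cell per library by its automatic threshold, so the highest scores were removed at 0.8% per 1000 cells (256 and 532 cells).

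Classes were assigned per cell from mean scaled marker levels, asking for 2 markers and a lead of 1.25 times over unrelated classes. UMIs were summed per library and class; a class needed 50 cells in each library. A gene counted as past 1.5-fold (pseudocount 1 CPM) at 20 CPM and 20 UMIs or more. With 1 library per group no test was made. The calculations were tested on simulated data. The genes named were the 9 members, Mettl3 and Lyz2, pathway genes past 1.5-fold and, per member, the 3 genes most alike over classes. Some genes and the results that need them are not reported here. Ptprc and Cx3cl1 were named after their values were seen, as were the single cells. Members and lists were chosen with earlier results of these data known. Leiden clusters (leidenalg 0.10.2), TMM factors (edgeR 4.0.16) and the other alternatives are given in the closing section.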

Additional observations from a re-analysis of the deposited data

Results flagged for a closer look

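For 2 genes the ratio between the libraries had opposite signs in macrophage-like and classical monocyte-like cells, with neither counting interval reaching 0. The log2 ratio of Ccl8 was higher by 0.79 in classical monocyte-like cells (0.50) than in macrophage-like cells (-0.30), and its levels in classical monocyte-like cells, 105 and 149 CPM, stood beside 82.8 and 75.5 CPM in T-like cells. After thinning, B-like cells held more Ccl8 than classical monocyte-like cells in both libraries, at 130 and 190 CPM against 101 and 149 CPM. With both monocyte-like classes joined, the ratio of Ccl8 was -0.83 when a cell had to lead its next class by 2 times. For Ccr2 the log2 ratio in classical monocyte-like cells (-0.21) minus that in macrophage-like cells (0.25) was -0.46. With equal weight for each of 5 bins of cells ordered from monocyte to macrophage markers, the Ccr2 ratio of macrophage-like cells was -0.11, so the signs were no longer opposite. These differences were not tested, since each genotype had 1 library.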

How the results depend on the processing

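Each ratio of the 9 genes in both classes was recomputed under 10 alternatives, 1 of them, equal weight per bin, added after seeing the data. Of 180 ratios, 177 kept their sign, 112 stayed inside the original counting interval and 66 moved outside it. Among ratios whose interval excluded 0, 2 changed sign: Ccl8 in monocyte-like cells under the stricter gate (-0.83) and Ccr2 in macrophage-like cells with equal weight per bin (-0.11). The other sign change was that of Ccl24 in monocyte-like cells with Leiden clusters (-0.19). The count of genes higher in KO-labelled macrophage-like cells, 3, was 0 under the stricter gate (Ccl24 at 0.23), 0 with equal weight per bin and 1 with equal weight per cell (Ccl24). Ccl6 fell short with doublets kept or with all deposited barcodes, and Ccl9 after thinning, which left 2. Cx3cr1 was short of 1.5-fold there after thinning and with equal weight per bin (0 genes lower), and 2 genes, Ccl8 and Cx3cr1, were lower in monocyte-like cells under the stricter gate, where Ccl24 (0.65) joined the 3 genes higher. In each of the 10 alternatives Ccl2, Ccl7 and Ccl12 were past 1.5-fold in monocyte-like cells. The share of monocyte-like cells with a UMI was higher in the KO-labelled library for 4 genes as deposited and for 7 after thinning to 1000 UMIs. The causes were not tested, beyond what each alternative leaves out. No paired analysis was possible because each genotype had 1 library and the labels give no shared replicate numbers. Genes of few UMIs, such as Ccl24 outside the monocyte and macrophage classes, are limited by depth.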
